A study of Mus musculus with 22 samples.

Results

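In mouse regulatory T cells (Treg cells), 2468 of 16672 Ikaros-bound regions (14.8%) carried no Foxp3 peak in wild-type (WT) cells. Ikaros, encoded by Ikzf1, is a zinc finger transcription factor, and Foxp3 is the forkhead factor that defines the Treg lineage. The regions were chosen by joining the peaks of the 2 WT Ikaros libraries, keeping regions with a peak in both, and removing every region that overlapped a peak of either WT Foxp3 library by 1 bp or more. The absence of Foxp3 in WT is therefore a property of the choice and not a result. Of the other Ikaros regions, 4759 (28.5%) had a Foxp3 peak in 1 WT library and 9445 (56.7%) in both, and the latter are called Foxp3-sharing regions below.

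Treg cells from spleen and lymph nodes of WT and IkE5-deficient mice (written IkE5) were profiled by chromatin immunoprecipitation sequencing (ChIP-seq) after 1 h in a stimulation cocktail, the primary cells of both genotypes being treated alike. Each genotype had 2 peak lists (1 per library) for Foxp3, for p300, for NFAT1 and for H3K27ac, the acetylated form of lysine 27 of histone H3. Ikaros was mapped in WT alone, in 2 libraries. The labels do not spell out IkE5, the residual Ikaros in those cells was not analysed here, and no promoter, Cre driver, age or pooling of animals is stated. Nor is it stated that replicate libraries stem from different mice, so each p-value between genotypes below rests on library-to-library spread that could be technical. The p-values between classes of regions come from differences within each list and do not measure spread between animals.

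Ikaros binds DNA around a GGGAA core and is known in lymphocytes both as a repressor, through the NuRD complex, and as a regulator of developmental genes. p300 is the acetyltransferase that places H3K27ac at active enhancers and promoters. NFAT1, encoded by Nfatc2, enters the nucleus on calcium signalling downstream of the T cell receptor and can bind DNA together with Foxp3. Peaks of these proteins at an Ikaros region thus describe whether active chromatin and signal-driven factors are found at the same place.

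Promoters among the regions are shown first, because they let part of the DNA at Ikaros regions without Foxp3 be read directly. Each line gives the 250 bases before a RefSeq transcription start (GRCm38.p6, the assembly of mm10), 5′ to 3′ on the gene's strand. Capitals mark the Ikaros core (GGGAA, or TTCCC when on the other strand) and a longer ETS motif (CCGGAAG or CTTCCGG), which was added after values had been seen. The first 5 windows overlap a Foxp3-free region by at least 125 bp and come from the gene lists described below. Dusp5 encodes a phosphatase of nuclear ERK (chr19:53528895-53529144, + strand), Mcm6 a subunit of the replicative helicase (chr1:128359706-128359955, - strand), Med12 a subunit of the Mediator kinase module (chrX:101273841-101274090, + strand), Prim1 the catalytic primase subunit (chr10:128014965-128015214, + strand) and Psmc4 an ATPase of the proteasome (chr7:28050093-28050342, - strand).
Dusp5: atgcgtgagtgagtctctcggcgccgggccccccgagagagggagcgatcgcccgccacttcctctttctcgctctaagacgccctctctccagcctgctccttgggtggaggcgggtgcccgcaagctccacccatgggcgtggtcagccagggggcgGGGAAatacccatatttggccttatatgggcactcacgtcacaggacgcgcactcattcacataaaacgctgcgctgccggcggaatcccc
Mcm6: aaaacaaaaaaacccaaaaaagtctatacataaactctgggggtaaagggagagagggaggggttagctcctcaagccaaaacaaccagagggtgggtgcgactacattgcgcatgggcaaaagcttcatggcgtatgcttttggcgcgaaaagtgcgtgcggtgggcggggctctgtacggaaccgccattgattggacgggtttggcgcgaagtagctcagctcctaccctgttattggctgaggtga
Med12: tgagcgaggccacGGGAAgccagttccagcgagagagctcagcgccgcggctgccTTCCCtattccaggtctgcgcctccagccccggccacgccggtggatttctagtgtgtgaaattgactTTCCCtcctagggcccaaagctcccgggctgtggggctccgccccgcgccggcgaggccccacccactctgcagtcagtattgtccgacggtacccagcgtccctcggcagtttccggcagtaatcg
Prim1: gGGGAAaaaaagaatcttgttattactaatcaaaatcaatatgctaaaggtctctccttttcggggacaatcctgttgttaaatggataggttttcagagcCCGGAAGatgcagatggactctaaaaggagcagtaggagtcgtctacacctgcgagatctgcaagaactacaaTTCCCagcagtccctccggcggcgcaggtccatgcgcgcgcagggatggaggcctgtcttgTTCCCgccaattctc
Psmc4: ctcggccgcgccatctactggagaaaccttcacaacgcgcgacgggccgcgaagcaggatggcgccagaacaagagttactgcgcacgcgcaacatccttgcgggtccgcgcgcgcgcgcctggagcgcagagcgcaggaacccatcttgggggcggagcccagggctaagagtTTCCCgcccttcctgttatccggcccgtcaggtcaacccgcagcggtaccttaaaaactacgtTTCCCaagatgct
Counting both strands, the Ikaros core was found 3 times in Med12 and Prim1, 2 times in Psmc4, 1 time in Dusp5 and 0 times in Mcm6. The Mcm6 region (chr1:128359205-128359831) ends inside the printed window. The Mcm6 count therefore includes DNA outside the region and leaves out most of the region. The longer ETS motif was found 1 time in Prim1 and 0 times in the other 4 windows. For contrast, 3 promoters of the same gene groups that lie under Foxp3-sharing regions are given, picked after their motifs were seen because each holds both motifs. They belong to Psmc1, another proteasome ATPase (chr12:100109952-100110201, + strand), Rfc3, a subunit of the clamp loader (chr5:151651209-151651458, - strand), and Med4, a Mediator subunit (chr14:73509799-73510048, + strand).
Psmc1: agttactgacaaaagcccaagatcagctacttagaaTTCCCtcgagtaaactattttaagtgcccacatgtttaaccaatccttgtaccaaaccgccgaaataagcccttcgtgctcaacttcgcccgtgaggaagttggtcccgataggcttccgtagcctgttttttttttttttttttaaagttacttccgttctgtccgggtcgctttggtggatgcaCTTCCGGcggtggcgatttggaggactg
Rfc3: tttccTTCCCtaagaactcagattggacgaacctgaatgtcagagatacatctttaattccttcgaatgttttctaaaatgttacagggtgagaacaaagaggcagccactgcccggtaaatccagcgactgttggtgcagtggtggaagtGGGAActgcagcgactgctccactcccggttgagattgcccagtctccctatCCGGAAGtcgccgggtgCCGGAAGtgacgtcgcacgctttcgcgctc
Med4: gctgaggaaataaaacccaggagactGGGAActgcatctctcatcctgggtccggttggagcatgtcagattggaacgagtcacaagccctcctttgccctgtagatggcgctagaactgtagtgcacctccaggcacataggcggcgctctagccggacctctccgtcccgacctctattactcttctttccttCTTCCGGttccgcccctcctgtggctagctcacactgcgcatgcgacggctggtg

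Across promoters the Ikaros core was common in every class, and the longer ETS motif was less common under Foxp3-free than under Foxp3-sharing regions. Of 597 windows of 250 bases under a Foxp3-free Ikaros region, 62.5% held GGGAA, against 60.2% of 4479 under a Foxp3-sharing region and 56.2% of all 32841 windows. CCGGAAG was in 11.2% of the Foxp3-free windows, 23.8% of the Foxp3-sharing windows, 16.8% of those with Foxp3 in 1 WT list and 6.91% of all windows. The shorter ETS core GGAAG, which lies inside the longer motif, was in 70.2%, 74.8% and 64.1% of the Foxp3-free, Foxp3-sharing and all windows. TGTTTAC, a forkhead motif, was rare in each set, at 1.01% of Foxp3-free windows (6 of 597), 2.25% of Foxp3-sharing windows and 3.17% of all windows. AAGATGGC, the YY1 motif, was in 0.838% of Foxp3-free windows (5 of 597) and 3.71% of Foxp3-sharing windows. It was in 1.55% of windows with Foxp3 in 1 WT list and 1.56% of all windows. The GC content was alike, with 60.8% ± 8.58 (SD over 597 windows) and 59.5% ± 8.20 (SD over 4479 windows), so both classes lie well above the 53.2% of all windows. TGGGAA (24.6% and 20.3%), TGTGGT for Runx (9.72% and 11.9%), GGAAA for NFAT (53.6% and 59.4%), GGGCGG (62.5% and 57.9%), CCAAT (40.5% and 38.7%) and TGACTCA for AP-1 (2.51% and 2.66%) differed less in ratio between Foxp3-free and Foxp3-sharing windows. All shares count windows with a match on either strand, TGGGAA contains GGGAA, and the figures are a description with no test.

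The threshold of 1 bp left few borderline regions, but the number of regions depended on requiring both lists. With Foxp3 WT 1 left out 5547 Ikaros regions lacked Foxp3, and with Foxp3 WT 2 left out 4148 did. The nearest WT Foxp3 peak lay at a median of 9.20 kb, and 1176 regions (47.6%) had none within 10 kb. Just inside the rule, 129 regions had a Foxp3 peak within 250 bp and 368 within 1 kb. Just outside it, 20 of the 4759 regions with Foxp3 in 1 list overlapped that peak by less than 50 bp, and 95.9% overlapped by at least 250 bp. Of 15544 regions called by 1 Ikaros library only, which were not used, 57.3% (8901) had no WT Foxp3 peak, so the Foxp3-free share was higher where the Ikaros call itself was not repeated. Whether the Foxp3-free regions are weaker Ikaros sites was not tested, since the lists hold no peak height. The median distance between the peaks of the Ikaros libraries was 62 bp in Foxp3-free regions and 52 bp in Foxp3-sharing regions.

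Foxp3-free Ikaros regions lay away from promoters more often than Foxp3-sharing regions did. Within 250 bp of a RefSeq start lay 18.7% of them (451 of 2408, Wilson 95% interval 17.2 to 20.3%), against 35.7% of Foxp3-sharing regions (34.7 to 36.7%). Over 10 kb from any start lay 48.8% and 41.2%. The share inside a protein-coding gene was almost the same, at 54.9% and 54.3%. The 60 regions on chromosome 18 are left out of the distances to starts, and the table of starts covers 79.9% of protein-coding genes, so some promoters are missed in all classes. Exons and introns were not told apart.

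Foxp3-free Ikaros regions rarely carried p300 or NFAT1. A p300 peak was found at 9.0% (Wilson 95% interval 7.93 to 10.2%) and 6.93% (5.99 to 8.0%) of them in the WT lists, and at 13.2% (11.9 to 14.6%) and 8.55% (7.51 to 9.72%) in the IkE5 lists. The same 4 lists had p300 at 64.4%, 53.8%, 56.0% and 43.6% of Foxp3-sharing regions. All 4 values of the Foxp3-free regions lay below all 4 of the Foxp3-sharing regions. An NFAT1 peak was found at 5.27% and 3.57% of the Foxp3-free regions in WT and at 3.28% and 1.38% in IkE5. At Foxp3-sharing regions NFAT1 was found at 41.8% and 36.9% in WT and 19.4% and 13.2% in IkE5. The intervals cover counting error only and take regions as independent.

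Acetylation was less common too, but most Foxp3-free Ikaros regions had it. H3K27ac peaks were found at 69.6% and 62.8% of them in WT and 64.7% and 65.2% in IkE5, against 95.8%, 93.9%, 93.1% and 94.0% of Foxp3-sharing regions. Over the 12 lists of p300, NFAT1 and H3K27ac, the share was lower in Foxp3-free regions in 12 of 12 lists, by 32.7 percentage points on average (range -55.4 to -11.8). The exact sign-flip permutation test over the lists, two-sided, gave p = 0.000488, the smallest it can give with 12 lists. It treats the lists as independent although all were counted over the same regions. Within a target the differences were -45.0 points for p300, -24.4 for NFAT1 and -28.6 for H3K27ac, each with p = 0.13 by the exact permutation test, the smallest 4 lists allow. Regions with Foxp3 in 1 WT list lay between the other classes in every list of p300, NFAT1 and H3K27ac.

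**Figure D1:**
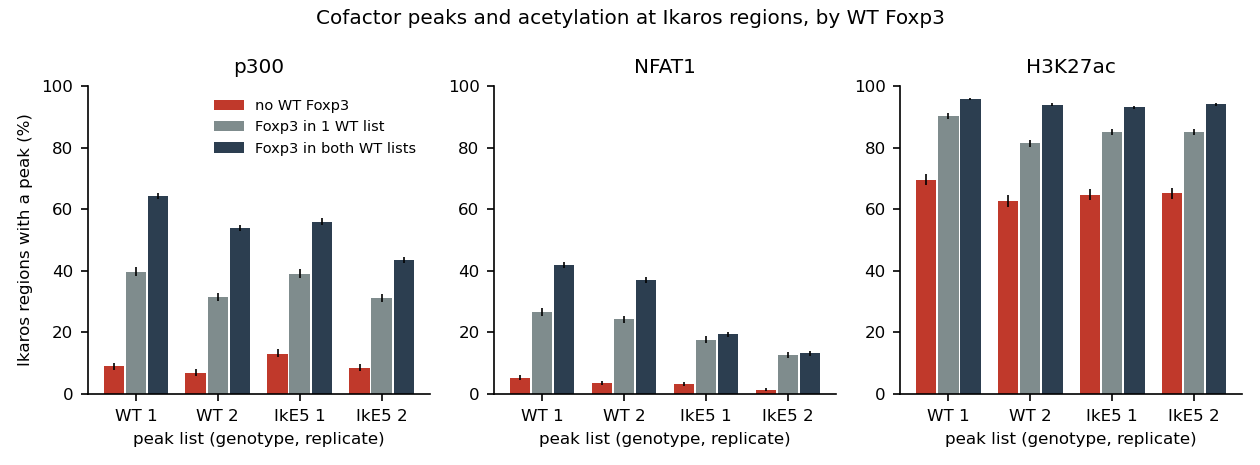
Bars give the percentage of Ikaros regions with a p300, NFAT1 or H3K27ac peak in each library (x axis: genotype and replicate), for regions without WT Foxp3 (n = 2468), with Foxp3 in 1 WT list (n = 4759) and in both (n = 9445), and error bars are Wilson 95% intervals. The Foxp3-free bars are the lowest in each of the 12 lists, from 1.38% for NFAT1 in IkE5 2 to 69.6% for H3K27ac in WT 1.

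Counted over all 4 H3K27ac lists, the Foxp3-free regions included a fully acetylated and an unacetylated set. H3K27ac was present in all 4 lists at 1292 of them (52.4%) and in none at 585 (23.7%). Among Foxp3-sharing regions, 1.84% had no H3K27ac in any list, and 4.94% of those with Foxp3 in 1 list had none. The unacetylated Foxp3-free regions were mostly distal, with 2.46% within 250 bp of a start, against 29.8% of those acetylated in all 4 lists. p300 was found at 0.684 to 2.05% of unacetylated and 10.5 to 18.0% of fully acetylated Foxp3-free regions, by list. Acetylation went without either cofactor at 802 Foxp3-free regions (32.5%), which had H3K27ac in 4 lists and neither p300 nor NFAT1 in any of 8.

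At 553 Foxp3-free regions (22.4%) none of the 12 lists had a peak, so Ikaros was the one protein mapped there apart from Foxp3 in IkE5. This state was found at 0.678% of Foxp3-sharing regions. Peaks in all 12 lists were found at 2 Foxp3-free regions (0.0810%) and at 9.34% of Foxp3-sharing regions. The former lay 1.17 kb from Skil, which encodes a SMAD co-repressor (chr3:31093627-31094144), and inside Ptpn5, which encodes a tyrosine phosphatase (chr7:47110535-47111508). The nearest WT Foxp3 peaks were 1.38 kb and 0.070 kb away.

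**Figure D2:**
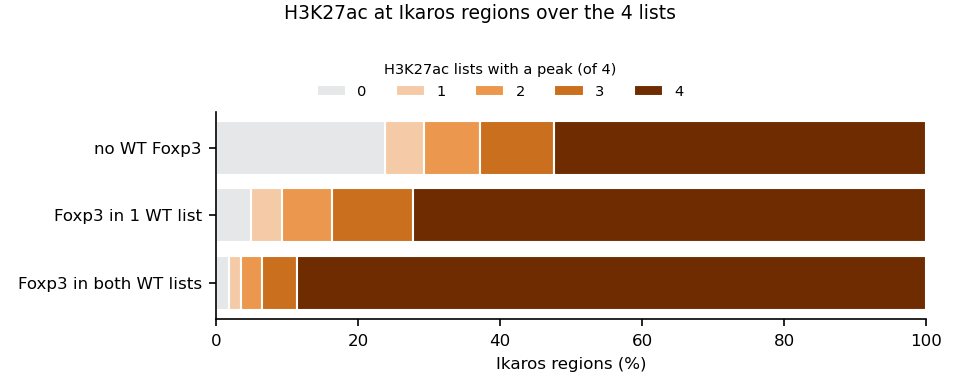
Stacked bars give the percentage of Ikaros regions (x axis) by the number of H3K27ac lists with a peak, 0 to 4, for the 3 Foxp3 classes. The segment without any H3K27ac is 23.7% in regions without WT Foxp3 and 1.84% in regions with Foxp3 in both WT lists.

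In IkE5 cells p300 was listed at more of the Foxp3-free regions and NFAT1 at fewer, and neither difference exceeded what 4 libraries can resolve. The p300 share was 2.90 points higher in IkE5 (exact permutation p = 0.667) and the ranges overlapped, since WT 1 (9.0%) lay above IkE5 2 (8.55%). The IkE5 minus WT difference of the NFAT1 share was -2.09 points (exact permutation p = 0.33), and both IkE5 values lay below both WT values. The NFAT1 lists as a whole were also shorter in IkE5, with 4908 and 3435 peaks against 7825 and 6850 in WT. The part of list length in the NFAT1 difference was not tested. The H3K27ac share differed by -1.22 points (exact permutation p = 1) and by 2.19 points without WT 1. These are two-sided exact permutation tests of 2 lists against 2, whose smallest p is 0.33. Relative to Foxp3-sharing regions, the p300 share of the Foxp3-free regions was 0.134 in WT and 0.216 in IkE5 (p = 0.33), for NFAT1 it was 0.111 and 0.137 (p = 0.667), and for H3K27ac 0.697 and 0.694 (p = 1), by the same exact permutation test of the ratio.

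The direction of the p300 difference turned on which Foxp3 lists defined the set. Taking Ikaros regions with no Foxp3 peak in the IkE5 lists in place of WT (n = 3102), p300 shares were 19.0% and 11.7% in WT and 8.83% and 5.58% in IkE5. Among the 1478 regions with no Foxp3 peak in any of the 4 lists they were 7.04% and 5.01% in WT and 5.01% and 3.18% in IkE5. The 302 regions with no WT Foxp3 but a Foxp3 peak in both IkE5 lists had p300 at 11.3% and 11.9% in WT and 38.1% and 25.8% in IkE5. In the mirror class, with Foxp3 in both WT lists and neither IkE5 list (n = 515), p300 was at 35.9% and 24.5% in WT and 12.4% and 6.60% in IkE5. In these last 2 classes p300 was higher in the genotype whose lists held the Foxp3 peak. For NFAT1 the regions free of Foxp3 in all 4 lists had 4.06% and 3.32% in WT and 1.56% and 0.609% in IkE5. With no Foxp3 in the IkE5 lists the NFAT1 shares were 11.5% and 8.74% in WT and 2.51% and 1.29% in IkE5. The 302 regions with Foxp3 in both IkE5 lists went the other way, with NFAT1 at 7.28% and 3.64% in WT and 9.60% and 4.30% in IkE5, which overlapped. The part that list-to-list variation in depth plays in these classes was not tested.

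**Figure D3:**
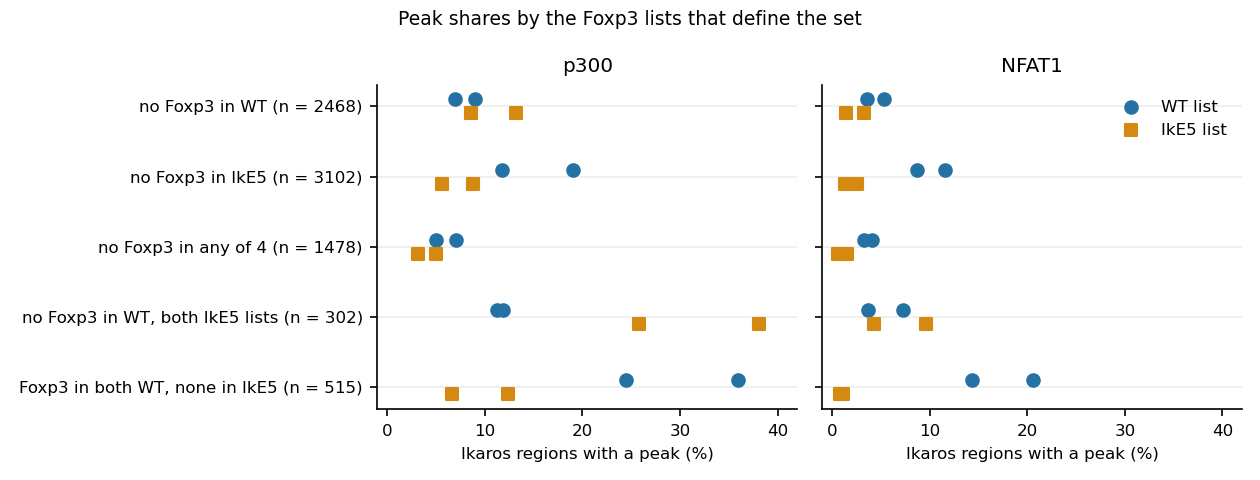
Points give the percentage of Ikaros regions with a p300 (left) or NFAT1 (right) peak in each WT (circle) and IkE5 (square) list, for 5 sets defined by the Foxp3 lists (y axis, with n). For p300 the IkE5 squares lie right of the WT circles where Foxp3 is in both IkE5 lists (25.8 and 38.1% against 11.3 and 11.9%) and left of them where it is in both WT lists only.

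Foxp3 itself was listed in IkE5 cells at some of these regions. A Foxp3 peak was found at 23.8% and 28.5% of them in the IkE5 lists, against 82.5% and 87.2% of Foxp3-sharing regions. Over both lists, 1478 (59.9%) had none, 688 had 1 and 302 (12.2%) had both. The latter include regions 0.087 kb from Psmc4, the proteasome ATPase shown above, inside Vav1, which encodes a guanine nucleotide exchange factor of T cell receptor signalling, 0.003 kb from Sumf2 and 6.04 kb from Cd8b1, which encodes a chain of the CD8 co-receptor. As these regions were picked for lacking Foxp3 in WT, a higher number in IkE5 is built into the choice and is given as a count only.

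Calls were then made region by region, with a peak in both lists of a genotype and neither list of the other. p300 was WT only at 18 Foxp3-free regions (0.729%) and IkE5 only at 70 (2.84%), where over all 16672 Ikaros regions the shares were 4.69% and 2.59%. NFAT1 was WT only at 33 (1.34%) and IkE5 only at 10 (0.405%), against 9.82% and 0.624% of all Ikaros regions. H3K27ac was WT only at 69 (2.80%) and IkE5 only at 42 (1.70%), against 1.87% and 0.972%. These shares depend on how many regions have a peak at all, which was 609 Foxp3-free regions for p300, 217 for NFAT1 and 1883 for H3K27ac. Among regions with a p300 peak in any list, WT only made up 2.96% of the Foxp3-free and 7.0% of all Ikaros regions, and IkE5 only 11.5% and 3.86%. Among regions with an NFAT1 peak in any list, WT only made up 15.2% and 24.9%, and IkE5 only 4.61% and 1.58%. For H3K27ac the shares were 3.66% and 1.99% for WT only and 2.23% and 1.03% for IkE5 only. The order of the Foxp3-free and all Ikaros regions for NFAT1 IkE5-only calls thus turned with the denominator. The regions were picked for lacking Foxp3 in WT only, and the direction of the p300 share difference turned with that choice, as given above. How far the choice tilts the WT-only and IkE5-only calls was not tested. All the calls also rest on every list. Without 1 list the counts reached 119 for p300 WT only (without WT 2), 210 for p300 IkE5 only (without IkE5 2), 92 for NFAT1 WT only (without WT 2), 42 for NFAT1 IkE5 only (without IkE5 2), 144 for H3K27ac WT only (without IkE5 2) and 165 for H3K27ac IkE5 only (without WT 1).

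The region in Foxp1, which encodes a forkhead factor that maintains naive T cells, had the WT-only call for both p300 and NFAT1 (chr6:99441131-99441639, 81.4 kb inside the gene). H3K27ac was listed there in WT 1, WT 2 and IkE5 2, and the nearest WT Foxp3 peak lay 7.55 kb away. The other named p300 WT-only regions lay at Prr7 (chr13:55463865-55464825), Dhx32 (chr7:133776406-133777066) and Eid1 (chr2:125672984-125673532), each within 0.157 kb of a gene end and acetylated in all 4 lists. p300 was IkE5 only inside Vav1 (chr17:57290388-57290978), inside Nfatc2, which encodes NFAT1 (chr2:168580173-168580783), at Rpl23a, which encodes a ribosomal protein (chr11:78183268-78183798), and 2.24 kb from Trim25, which encodes a ubiquitin ligase of RIG-I signalling (chr11:89022198-89022869). Of these 4, the Vav1 region had Foxp3 in both IkE5 lists, those at Rpl23a and Trim25 in 1 and that in Nfatc2 in neither.

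NFAT1 was WT only at Foxp1, inside Arl15 (chr13:113854777-113855566), 0.014 kb from Irf2bp1 (chr7:19003786-19004303) and at Galm (chr17:80127193-80127791). The Arl15 region also had H3K27ac in both WT lists and neither IkE5 list. NFAT1 was IkE5 only 9.32 kb from Ifitm6, 0.899 kb inside Slc43a3, at Cry1, which encodes a repressor of the circadian clock, and 1.24 kb from Prkch, which encodes a protein kinase C. At each of these 4, p300 was in at least 1 IkE5 list, and it was also in WT 2 at Slc43a3 and in WT 1 at Prkch. Foxp3 was in both IkE5 lists at Ifitm6 and Cry1 and in IkE5 1 alone at Slc43a3 and Prkch. The nearest WT Foxp3 peaks were 0.18, 0.662, 0.802 and 32.7 kb away, in the order named. H3K27ac was WT only 1.38 kb from Bcl11b, which encodes a factor of T cell commitment (chr12:107908689-107909368), at Arl15, at Tlr12 and at Spry4. It was IkE5 only inside Cpne5, at Maoa, at Slc8b1 and at Cdkn3, which encodes a phosphatase of cyclin-dependent kinases. The calls concern a peak over the region itself. Within 5 kb each side, H3K27ac peaks covered 1.194 and 1.188 kb in WT and 1.498 and 1.57 kb in IkE5 at Maoa. At Tlr12 they covered 2.405 and 2.589 kb in WT and 0.628 and 1.165 kb in IkE5. At Cpne5 they covered 0.5 and 0 kb in WT and 0.5 and 1.065 kb in IkE5. At Arl15 and Spry4 both IkE5 lists had 0 kb, and at Slc8b1 and Cdkn3 both WT lists had 0 kb.

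The length of DNA covered by H3K27ac peaks within 5 kb on each side of each region was compared between genotypes with limma, over 14000 Ikaros regions with a mean of at least 1000 bp, on log2(covered length + 1000 bp). Of the 1530 Foxp3-free regions tested, 0 were higher and 0 were lower in IkE5 at an adjusted p under 0.05, and of all regions tested 0% were called in each direction. At an unadjusted p under 0.05, 73 Foxp3-free regions (4.77%) were higher and 97 (6.34%) lower, against 466 (3.33%) and 829 (5.92%) of all. The median log2 difference was 0.01 in Foxp3-free regions and -0.01 in all. Where the cover is short, the added 1000 bp makes a log2 difference smaller than the true change.

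The largest drop among named regions was at Foxp1, although it did not pass the test. H3K27ac covered 5.79 and 6.57 kb around the Foxp1 region in the WT lists and 0.50 and 1.01 kb in the IkE5 lists, a log2 difference of -2.05 ± 0.20 (SE, limma adjusted p = 0.33). Around the region in Satb1, which encodes a chromatin organiser of T cells (chr17:51762463-51762984), the cover was 5.89 and 6.85 kb in WT and 1.96 and 1.80 kb in IkE5, a log2 difference of -1.35 ± 0.18 (SE, limma adjusted p = 0.386). In both places the WT and IkE5 values did not overlap. The nearest WT Foxp3 peak lay 7.55 kb from the Foxp1 region but 0.541 kb from the Satb1 region, so the Satb1 window also held a Foxp3 peak. Bach2, which encodes a repressor that keeps T cells quiescent, had 2 regions inside the gene. The cover was 9.02 and 7.34 kb in WT and 2.80 and 5.87 kb in IkE5 at Bach2 a (chr4:32401234-32401774). At Bach2 b (chr4:32481388-32482249) it was 3.25 and 1.72 kb in WT and 1.19 and 0.827 kb in IkE5. Il7r, which encodes the interleukin-7 receptor, was at or near the full window in all 4 lists, between 9.90 and 10.0 kb. At Bcl11b the cover was 2.18 and 0.50 kb in WT and 0.656 and 0 kb in IkE5, too short to enter the test. The windows at Bach2 a and Il7r also held a WT Foxp3 peak, 1.63 and 0.88 kb from the region. At Bach2 b and Bcl11b the nearest one was 34.7 and 28.2 kb away. Both IkE5 values lay below both WT values at 4 of the 5 regions of naive and quiescence genes that were tested, which was the case at 344 of 1530 Foxp3-free regions (22.5%) and at 22.8% of all regions tested, and 0 of the 5 passed adjustment over all regions.

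**Figure D4:**
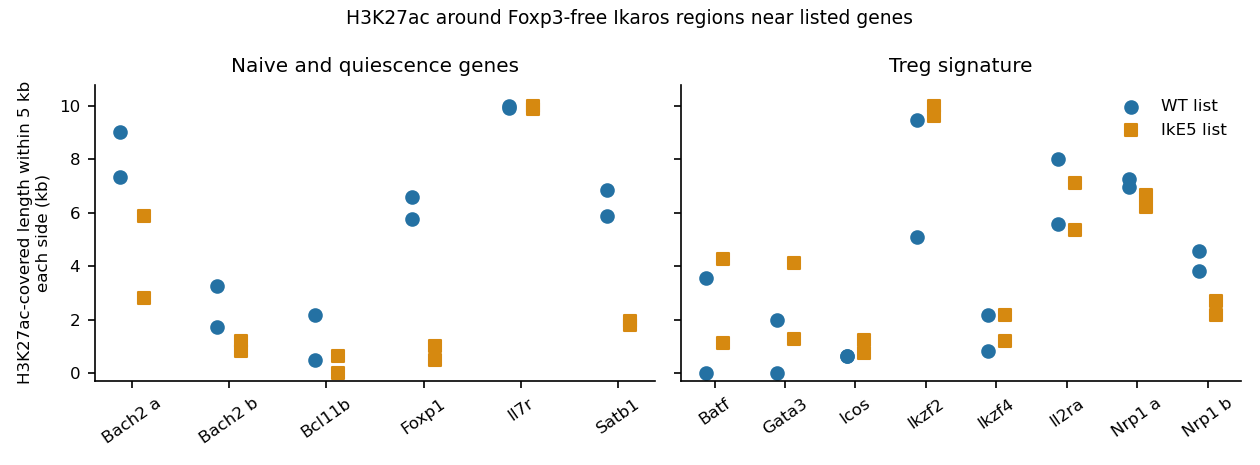
Points give the length covered by H3K27ac peaks within 5 kb each side of the Foxp3-free Ikaros region (y axis, kb) in each WT (circle) and IkE5 (square) list, for all regions near naive and quiescence genes (left) and Treg signature genes (right). The lists separate most at Foxp1 (5.79 and 6.57 against 0.50 and 1.01 kb) and Satb1, and lie together at Il7r. Some windows, those at Satb1 and Il7r among them, hold a WT Foxp3 peak beside the region.

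Genes near Foxp3-free Ikaros regions were counted over fixed lists, counting a region that lay inside a gene or at most 10 kb from its ends. Of 21883 protein-coding genes, 2558 (11.7%) had a Foxp3-free and 8583 (39.2%) a Foxp3-sharing region, and 1330 had both. A Foxp3-free region with no Foxp3-carrying Ikaros region beside it was found at 874 genes (3.99%). The lists were written with earlier results of these data known, and the shares are descriptions in which long genes have more chances. A region can be counted for a listed gene while lying inside a neighbouring one, as do those 9.62 kb from Mrpl28 and 7.58 kb from Cd4.

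In each of 6 lists of housekeeping machinery more genes were near a Foxp3-sharing than near a Foxp3-free region. Of 79 cytosolic ribosomal protein genes, 66 (83.5%) had a Foxp3-sharing and 7 (8.86%) a Foxp3-free region. Of 50 genes of the mitochondrial ribosome and respiratory chain, 43 had the former and 2 (4.0%), Mrpl10 and Mrpl28, the latter. The counts were 33 and 4 of 35 spliceosome genes, 27 and 4 of 31 proteasome genes, 27 and 7 of 31 translation factors and 31 and 6 of 35 genes of the transcription machinery and Mediator. Against the 11.7% of all genes with a Foxp3-free region, the share was 8.86% in the cytosolic ribosomal and 4.0% in the mitochondrial list, 11.4% in the spliceosome and 12.9% in the proteasome list, and 17.1% in the transcription and 22.6% in the translation factor list. The housekeeping lists thus lay on both sides of the share of all genes.

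T cell receptor signalling had the highest share near Foxp3-free regions, at 11 of 28 genes (39.3%), and 26 of the 28 had a Foxp3-sharing region. They include genes for CD3 chains (Cd3d, Cd3e, Cd3g, Cd247), the adaptor Lcp2, the exchange factor Vav1, the kinase Prkcq with 2 regions and the NFAT factors Nfatc1, Nfatc2 with 2 regions, and Nfatc3. All the regions of these named genes except the one shared by Cd3d and Cd3e and the one near Cd3g were acetylated in all 4 lists. Nfatc2 had a second region (chr2:168588666-168589213), 0.268 kb from a WT Foxp3 peak, with NFAT1 in WT 1 and IkE5 2. The median gene length in this list was 49.0 kb, against 17.2 kb of all genes.

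Of 22 genes for Ikaros relatives and corepressors, 7 (31.8%) were near a Foxp3-free region and 16 near a Foxp3-sharing one. They were Ikzf2, Ikzf3 and Ikzf4, which encode the Ikaros relatives Helios, Aiolos and Eos, and Chd3, Gatad2a, Hdac1 and Mbd2, which encode NuRD subunits. The Ikzf2, Ikzf3 and Ikzf4 regions lay inside the genes and were acetylated in all 4 lists, whereas that in Gatad2a had H3K27ac in IkE5 2 only.

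Of 29 Treg signature genes 7 (24.1%) had a Foxp3-free region and 21 a Foxp3-sharing one, with 6 genes having both. They were Icos and Nrp1, which encode surface receptors, Ikzf2 and Ikzf4, Il2ra, which encodes the high-affinity interleukin-2 receptor chain, and Batf and Gata3, which encode factors of effector Treg cells. The region 7.54 kb from Il2ra (chr2:11635005-11635506) had p300 in WT 1, WT 2 and IkE5 1 and lay 0.560 kb from a WT Foxp3 peak. The cover of H3K27ac there was 8.02 and 5.57 kb in WT and 7.11 and 5.36 kb in IkE5, which overlapped. Naive and quiescence genes had 5 of 22 (22.7%), Bach2, Bcl11b, Foxp1, Il7r and Satb1, and AP-1 and activation genes 5 of 28 (17.9%), with 2 regions at Dusp5 and 1 each at Batf, Fosb, Irf4 and Nr4a3.

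Effector cytokine genes, of a median length of 4.78 kb, had 2 of 20 (10.0%), Il24 and Ltb, and interferon-induced genes had 3 of 28 (10.7%), Ifit1, Irf7 and Trim25, both near the 11.7% of all genes. DNA replication and cell cycle genes had 10 of 40 (25.0%) and 26 with a Foxp3-sharing region. They were Mcm2 and Mcm6 of the helicase, Prim1 of primase, Gins1, Rfc2, the ribonucleotide reductase gene Rrm2, Rb1, which encodes the retinoblastoma protein, its partners E2f1 and E2f2, and Orc2 of the origin recognition complex with 2 regions free of H3K27ac. Ikaros target genes of lymphocytes had 4 of 26, Cd3d, Cd4, Cd8b1 and Stat4. Cd3d shares its region with Cd3e.

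**Figure D5:**
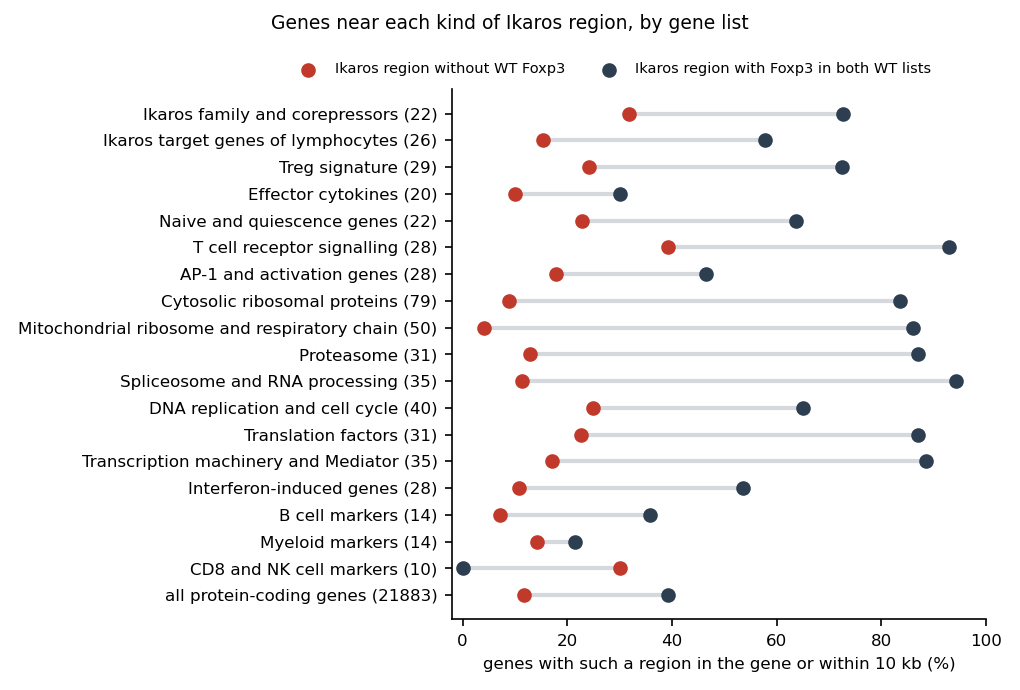
For each gene list (y axis, with the number of genes) the points give the percentage of genes with a Foxp3-free Ikaros region and with a Foxp3-sharing Ikaros region in the gene or within 10 kb. The points lie farthest apart for spliceosome, mitochondrial and ribosomal genes, and for CD8 and NK cell markers the Foxp3-free point (30.0%) lies above the other (0%).

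Among markers of other cell types, 3 of 10 CD8 and natural killer (NK) cell genes had a Foxp3-free Ikaros region and 0 a Foxp3-sharing one. These were Cd8b1, Klrb1c (chr6:128777537-128778088) and Eomes (chr9:118488249-118488797), and the first pair of regions had no H3K27ac in any list. Blk was the 1 of 14 B cell genes, and Cebpb and Spi1 were the 2 of 14 myeloid genes, and the regions of these 3 were acetylated in all 4 lists. Foxp3, Il2ra, Ctla4, Ikzf2, Cd3e and Cd4, 6 of 6 Treg markers, had H3K27ac in the gene or within 2 kb in all 4 lists, as labelled. Of 4 defining markers each, 2 of B cells (Cd79a and Pax5), 2 of myeloid cells (Itgam and Cd14) and 0 of CD8 and NK cells had it in all 4, while Ms4a1, Lyz2, Csf1r, Ncr1 and Klrb1c had none in any list. The part of other cells in the acetylation of these lists was not tested.

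Most genes with a Foxp3-free region had 1 of them (2301 of 2558). Tbc1d16, which encodes a Rab GTPase-activating protein, had the most, with 4, and 28 genes had 3. Among genes with no Foxp3-carrying Ikaros region, Bsn, Epb41l2, Ppp6r1 and Snap23 had 3 Foxp3-free regions each. AU022252 had 2 and was named as the first by alphabet of many genes with 2. The 3 at Ppp6r1, which encodes a regulatory subunit of a protein phosphatase, were acetylated in all 4 lists with neither cofactor, and their H3K27ac cover was between 7.20 and 7.75 kb in every list. Those at Snap23, which encodes a membrane fusion protein, were mixed. One inside the gene (chr2:120578218-120578830) had NFAT1 in both WT lists only. Another, beyond its end (chr2:120609079-120609741), had p300 and Foxp3 in both IkE5 lists only. The latter lay inside a neighbouring gene, 0.027 kb from an end of that gene.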

How the data were processed

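The authors deposited 1 peak list per library, each holding chromosome, start and end with no score or height, so the unit is the position of a peak; 18 of 22 samples had a list, and the 4 inputs were not analysed here. Per the submitters' processing notes the build was mm10 and the tools were HOMER, MACS2, Bowtie2, bedtools and FastQC; their roles and the peak threshold are not given in the sources used here. Read depth is unknown, and the number of peaks (3435 to 53032 per list) moves with depth, enrichment and threshold as well as binding. The highest share of identical peaks in 153 pairs of lists was 0.745%.

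Overlaps, exact permutation tests and counts were computed in Python 3.11.15 (numpy 2.4.6, pandas 2.3.3), and limma 3.58.1 in R 4.3.3 was run on the H3K27ac-covered length. Functions were tested on simulated data. Genes were the 21883 protein-coding genes of RefSeq (GRCm38.p6), given without strand; 529 of 531 listed genes matched. Named genes were, for each call, up to 4 regions with listed genes first, then more calls, then the shortest distance; all regions with 12 peaks; the 10 genes with most regions; and up to 3 genes per list. Further genes of a list, Satb1 and Il2ra among them, and the promoters printed were picked after their values were seen. The regions and lists were chosen with earlier results of these data known. Alternatives covered overlap, Ikaros and Foxp3 lists used, distance, filters and left-out libraries.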

Additional observations from a re-analysis of the deposited data

How the results depend on the processing

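The lower shares of p300, NFAT1 and H3K27ac at Foxp3-free than at Foxp3-sharing regions kept their direction under every alternative run (overlap of 250 bp, near to and far from gene ends, a 1 kb margin), as did the NFAT1 difference between genotypes. The number of Foxp3-free regions was 1478 when all 4 Foxp3 lists had to lack a peak, 4861 or 9098 when 1 Ikaros list was enough, and 4148 or 5547 when 1 Foxp3 list was used. The IkE5 minus WT difference of the p300 share turned to -1.93 points with no Foxp3 in any list and to -8.17 with none in the IkE5 lists (added after seeing the data). Leaving out 1 library gave 0.588 to 5.21 for p300, -3.04 to -1.13 for NFAT1 and -4.62 to 2.19 for H3K27ac, which was 2.19 without WT 1. With 1 Ikaros list the difference was 1.78 and 4.47 for p300, -0.940 and -1.75 for NFAT1, and -3.20 and 0.0309 for H3K27ac. The difference in ratio to Foxp3-sharing regions turned to -0.130 (IkE5 lists) and -0.0221 (all 4 lists) for p300 and to -0.156 and -0.0304 for NFAT1, both added after seeing the data, and for H3K27ac to 0.00288 with 250 bp overlap and 0.0149 near gene ends. The calls rest on every library. Without 1 of them they ranged from 27 to 119 (p300 WT only), 80 to 210 (p300 IkE5 only), 34 to 92 (NFAT1 WT only), 10 to 42 (NFAT1 IkE5 only), 91 to 144 (H3K27ac WT only) and 62 to 165 (H3K27ac IkE5 only); the highest were without WT 2, IkE5 2, WT 2, IkE5 2, IkE5 2 and WT 1. The cause was not tested, except that a call on fewer lists is easier to make. For H3K27ac cover, limma called 0 Foxp3-free regions in each alternative except 1, after scaling to covered length (adjusted p = 0.0485). With a replicate block it called 0 too (147 higher and 129 lower at an unadjusted p under 0.05). Same-numbered libraries deviated together (correlation 0.53), but 2 pairs do not show that the numbers pair them. Genes near a Foxp3-free region were 1139 within 2 kb of a gene end.

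The lists hold no reads, heights or scores, so an absent peak does not show absent binding, and depth limits every share. At 2 libraries a genotype the exact test of a single share has no outcome under 0.05.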
